A study of Arabidopsis thaliana with 8 samples.

Results

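Superoxide dismutases and catalases act one after the other on reactive oxygen species. The 10 genes described here encode 7 superoxide dismutases (FSD1, FSD2, FSD3, CSD1, CSD2, CSD3 and MSD1) and 3 catalases (CAT1, CAT2 and CAT3) of Arabidopsis thaliana. They were picked by locus tag and not by their values, though with earlier results of these data known. They make up 10 of the 25427 locus tags that could be matched to a probe of the array. In all, 24 probes matched them, and 23 of these were tested.

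Gene expression was measured on 8 Agilent 1-colour arrays, 1 plant sample per array. Wild-type Col-0 plants (WT) and T3 homozygous plants that overexpress ThbZIP1, a bZIP transcription factor of the halophyte Tamarix hispida (OE), were compared at 4 weeks of age. Both genotypes were given water or 10 µM abscisic acid (ABA) for 3 h, with 2 arrays in each of the 4 groups, and the replicates came from different plants. Whole seedlings were harvested with roots and shoots pooled, so that fewer cells of a type and less RNA per cell cannot be told apart. No probe for the transgene was identified, and whether the OE samples hold 1 transgenic line or several is not given in the sources used here.

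Several facts about the arrays bear on every comparison. All 4 OE arrays lay on 1 slide and the 4 WT arrays on 3 other slides scanned on another day, so that genotype cannot be told apart from slide and scan day. In WT, no slide held arrays of both treatments, so there ABA and slide cannot be told apart either, whereas both treatments of OE shared a slide. Another label field names other lines and treatments for the same arrays; the titles, source names, genotype and treatment labels were followed. Between 68.1% and 72.1% of the probes were well above background on an array, arrays of a group correlated with r of 0.971 to 0.985 across probes, and the ABA-induced phosphatase gene HAI1 rose by 6.13 on the log2 scale in WT and by 6.0 in OE under ABA. It is 1 of 5 listed ABA-induced genes, of which 2 (HAI1 and RD29B) were called in each genotype, while RD29A, RAB18 and NCED3 differed by 1.82, 2.02 and -0.67 in WT and by 5.41, 2.53 and 1.62 in OE without a call. On the first WT water array, 1148 gene spots were marked as outliers, against 6 to 24 on the others.

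The enzymes themselves are well known. Superoxide dismutases turn superoxide into hydrogen peroxide and oxygen, and are named for the metal at their centre: FSD for iron, CSD for copper and zinc, MSD for manganese. FSD2 and FSD3 work in the chloroplast, FSD1 in chloroplast and cytosol, CSD1 in the cytosol, CSD2 in the chloroplast, CSD3 in the peroxisome and MSD1 in the mitochondrion. Catalases, which sit mainly in peroxisomes, break down hydrogen peroxide. CAT2 is the main catalase of photosynthetic leaves, where it removes the peroxide of photorespiration, CAT3 is linked to vascular tissue and older leaves, and CAT1 is the least abundant in leaves and is known as an ABA-responsive gene. When copper is scarce, FSD1 is known to rise while microRNAs hold down CSD1 and CSD2.

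In water, FSD2 and FSD3, whose enzymes work in the chloroplast, were each nearly 4-fold higher in OE than in WT. They were the only members called. Each gene was read from its probe with the highest mean signal, and a call needed a change of 2-fold or more together with a limma p that, adjusted by Benjamini-Hochberg over all probes, was under 0.05. By this rule 2 of 10 members were called higher and 0 lower, where 19.2% of all 19477 tested locus tags were called, 9.87% of them higher and 9.36% lower. Over all probes, 3 of the 23 member probes were called (13.0%), against 19.0% of 31265 probes. The members were thus called about as often as genes in general, and their median log2 change of -0.10 lay beside a median of 0.06 over all locus tags.

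FSD2 (AT5G51100, chromosome 5) was read by a single probe. Its values, given throughout as log2 signal minus the 75th percentile of the array, were -0.75 and -1.06 in WT water, 0.70 and 1.36 in OE water, -0.44 and 0.08 in WT under ABA, and 0.51 and 0.66 in OE under ABA. All 4 OE arrays lay above all 4 WT arrays. In water OE exceeded WT by 1.93 on the log2 scale (SE 0.29, 95% interval 1.23 to 2.64, 3.82-fold, adjusted p = 0.00781 in limma). Under ABA the distance was 0.76 (SE 0.29, 95% interval 0.06 to 1.46) and was not called (adjusted p = 0.122).

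FSD3 (AT5G23310, chromosome 5), whose product is found with FSD2 at the nucleoids of the chloroplast, was also read by 1 probe. It stood at -0.98 and -1.24 in WT water, 0.30 and 1.31 in OE water, -0.53 and -0.09 in WT under ABA, and 0.11 and 0.41 in OE under ABA. Again every OE array lay above every WT array. The difference in water was 1.91 (SE 0.36, 95% interval 1.04 to 2.79, 3.77-fold, adjusted p = 0.0138 in limma), and under ABA it was 0.57 (95% interval -0.30 to 1.45, adjusted p = 0.301). The call for FSD3 in water was lost without the second WT water array (1.79, adjusted p = 0.0606) and with another background correction (1.64, adjusted p = 0.0580), whereas FSD2 stayed called under both.

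**Figure D1:**
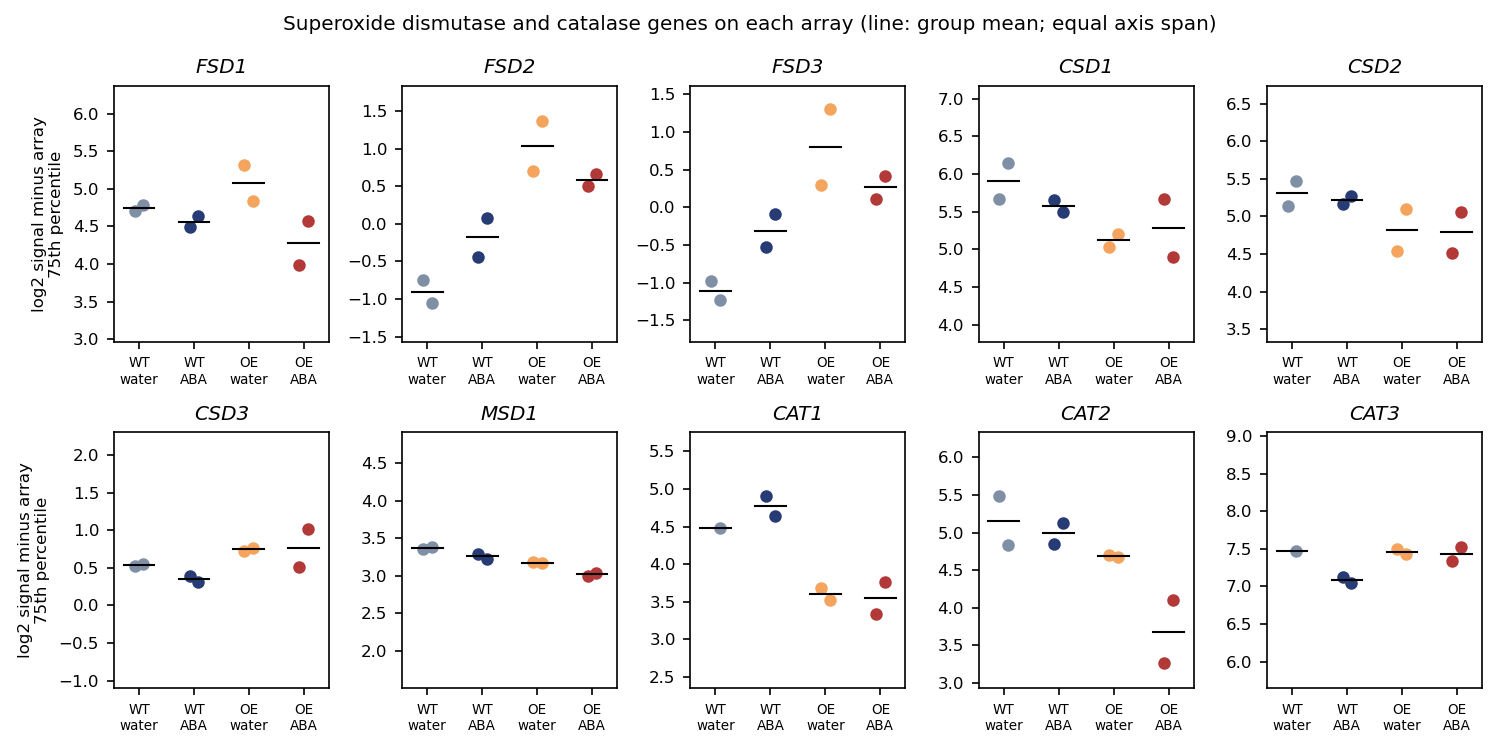
Log2 signal minus the array's 75th percentile of each of the 10 genes on the 8 arrays, by group (points: arrays; line: group mean; 2 arrays per group, but 1 usable WT water array for CAT1 and CAT3). Every panel spans the same range, so that the wide separation of FSD2 and FSD3 and the narrow one of MSD1 can be read side by side; levels of different genes are not comparable.

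The values of FSD2 and FSD3 also moved together over the 8 arrays. Of 18692 locus tags with a value on every array, the one whose values correlated best with FSD3 was FSD2 (r = 0.988), followed by AT5G02890 (r = 0.988). For FSD2 the best were AT3G27860 (r = 0.997), the receptor kinase gene NIK1 (r = 0.996) and the histone methyltransferase gene ATXR6 (r = 0.996), with FSD3 in rank 9. These correlations describe 8 arrays that share genotype, treatment and slide, and carry no test.

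**Figure D2:**
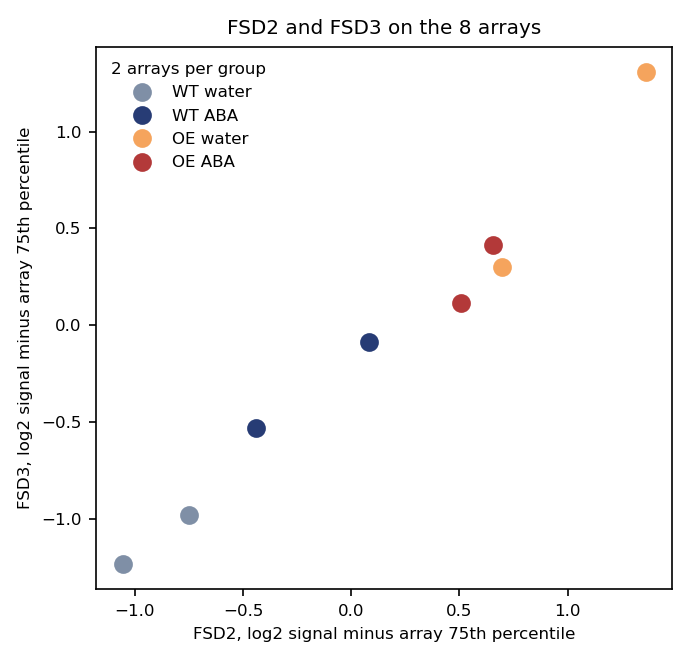
FSD3 against FSD2 on the 8 arrays, both as log2 signal minus the array's 75th percentile, with 2 arrays in each of the 4 groups. The WT water arrays lie lowest and the OE water arrays reach highest, with both ABA groups between the 2 group means of water for both genes (r = 0.988).

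FSD2 and FSD3 had opposite signs of their ABA difference in the 2 genotypes. In WT, FSD2 was 0.72 higher under ABA than in water (95% interval 0.02 to 1.43, adjusted p = 0.290 in limma) and in OE it was 0.45 lower (95% interval -1.15 to 0.25, adjusted p = 0.509). For FSD3 the corresponding values were 0.80 (adjusted p = 0.337) and -0.54 (adjusted p = 0.518). The difference between the ABA responses was -1.17 for FSD2 (SE 0.41, adjusted p = 0.360) and -1.34 for FSD3 (SE 0.51, adjusted p = 0.395), so the interaction was not called for either gene. No probe of the array was called for the interaction (0 of 31265), while 2026 probes passed an unadjusted p of 0.05 and 2-fold, FSD2 and FSD3 among them.

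FSD1 (AT4G25100, chromosome 4), also an iron enzyme gene, gave no call. Its brighter probe gave 4.71 and 4.78 in WT water, 5.32 and 4.83 in OE water, 4.49 and 4.64 in WT under ABA, and 3.99 and 4.57 in OE under ABA. OE differed from WT by 0.33 in water (95% interval -0.28 to 0.95, adjusted p = 0.343 in limma) and by -0.29 under ABA (95% interval -0.90 to 0.33, adjusted p = 0.454). In OE both ABA arrays lay below both water arrays, by -0.80 on average (SE 0.25, adjusted p = 0.213), and the dimmer probe gave -0.77 there (adjusted p = 0.275).

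CSD1 (AT1G08830, chromosome 1), of the cytosolic copper/zinc enzyme, separated the genotypes in water. There its brighter probe read 5.67 and 6.14 in WT and 5.03 and 5.20 in OE, without overlap, a difference of -0.79 (SE 0.29, 95% interval -1.51 to -0.07) that was not called (adjusted p = 0.0881 in limma). Its second probe gave -0.996 (SE 0.28), which passed the adjusted p (0.0428) but, at 1.99-fold, not the minimum fold. Under ABA the groups overlapped, with 5.65 and 5.49 in WT and 5.67 and 4.90 in OE, and the difference was -0.29 (adjusted p = 0.515).

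CSD2 (AT2G28190, chromosome 2) read 5.14 and 5.47 in WT water, 4.54 and 5.10 in OE water, 5.17 and 5.27 in WT under ABA, and 4.52 and 5.06 in OE under ABA. Its 4 OE arrays all lay below its 4 WT arrays, but the 2 OE arrays of each treatment stood wide apart. The differences were -0.49 in water (SE 0.27, adjusted p = 0.213 in limma) and -0.43 under ABA (SE 0.27, adjusted p = 0.307), and neither was called. For the second CSD2 probe the groups overlapped under ABA.

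CSD3 (AT5G18100, chromosome 5) differed little between groups, from 0.31 on a WT array under ABA to 1.02 on an OE array under ABA. OE lay above WT by 0.21 in water (95% interval -0.25 to 0.67) and by 0.42 under ABA (95% interval -0.04 to 0.88, adjusted p = 0.172 in limma). Both intervals exclude a change of 2-fold.

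MSD1 (AT3G10920, chromosome 3), the mitochondrial manganese enzyme gene, was the most tightly measured member. Its arrays read 3.35 and 3.38 in WT water, 3.18 and 3.16 in OE water, 3.29 and 3.23 in WT under ABA, and 3.00 and 3.04 in OE under ABA. Although every OE array lay below every WT array, the differences were only -0.19 in water (SE 0.12, adjusted p = 0.244 in limma) and -0.24 under ABA (SE 0.12, adjusted p = 0.203). Its second probe gave -0.24 and -0.32. The 95% intervals of both probes lay within 2-fold in both comparisons.

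MSD2, the gene of a second manganese enzyme, was not well above background on both arrays of any group and was not tested.

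Under ABA the called member was a catalase gene. CAT1 was called lower in OE, which made 1 of 10 members by brightest probe (0 higher and 1 lower) where 9.93% of all locus tags were called, 4.32% higher and 5.62% lower. Over probes it was 1 of 23 (4.35%), against 10.3% of all probes. The median log2 change of the members was -0.26, beside 0.08 over all locus tags. The share of members called by brightest probe was thus close to that over all locus tags, while the share over probes was lower.

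CAT1 (AT1G20630, chromosome 1) read 4.91 and 4.64 in WT under ABA and 3.34 and 3.77 in OE under ABA on its brightest probe, with a wide gap between the genotypes. OE differed from WT by -1.22 on the log2 scale (SE 0.21, 2.34-fold lower, adjusted p = 0.0244 in limma). A dimmer probe of the gene gave -1.06 (SE 0.38, adjusted p = 0.111), with both OE arrays below both WT arrays. The remaining CAT1 probe was well above background on 2 arrays only and was not tested.

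In water CAT1 read 4.49 on the usable WT array and 3.68 and 3.52 in OE, a difference of -0.88 (SE 0.26, adjusted p = 0.0551 in limma, n = 1 and 2 arrays). The lone WT array is assumed there to vary like the arrays of the other groups, as for CAT3. The spot of the first WT water array was marked as an outlier and left out. With that spot kept, at 2.86, the difference in water was -0.07 (adjusted p = 0.922) and the call under ABA was lost (-1.23, adjusted p = 0.148). The dimmer probe, which kept all 8 arrays, gave -0.80 in water (SE 0.38, adjusted p = 0.158). The call under ABA was also lost on leaving out the first OE ABA array (-1.01, adjusted p = 0.0857), the first WT ABA array (-1.09, adjusted p = 0.128) or the second (-1.36, adjusted p = 0.0825).

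CAT2 (AT4G35090, chromosome 4) had the lowest value of the 10 genes in OE relative to WT under ABA, but also a wide spread between arrays. It read 5.49 and 4.83 in WT water, 4.70 and 4.68 in OE water, 4.85 and 5.13 in WT under ABA, and 3.27 and 4.10 in OE under ABA. The 4 OE arrays lay below the 4 WT arrays, and the OE arrays under ABA lay lowest. Under ABA, OE differed from WT by -1.31 (SE 0.34, 95% interval -2.13 to -0.48, 2.47-fold lower), just outside the threshold (adjusted p = 0.0514 in limma). In water the difference was -0.47 (SE 0.34, adjusted p = 0.322).

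Within OE, CAT2 was lower under ABA than in water by -1.01 (SE 0.34, 95% interval -1.83 to -0.18, adjusted p = 0.242 in limma), and within WT by -0.17 (adjusted p = 0.847). The interaction was -0.84 (SE 0.48, adjusted p = 0.540). Without the first OE ABA array the OE against WT difference under ABA was -0.89 (adjusted p = 0.170), and without the second it was -1.72 (adjusted p = 0.0363). With all arrays kept, it was also called under 6 of the alternatives, among them quantile normalization (-1.38, adjusted p = 0.0435). The 3 locus tags most like CAT2 over the 8 arrays were AT2G17540 (r = 0.985), the cellulose synthase-like gene CSLB04 (r = 0.985) and PGR5, a gene of cyclic electron flow around photosystem I (r = 0.981).

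CAT3 (AT1G20620, chromosome 1), which lies next to CAT1 on the chromosome with 0 genes between them in the RefSeq table, was read by 9 probes. On the brightest, the usable WT water array gave 7.48, OE water 7.50 and 7.43, WT under ABA 7.12 and 7.04, and OE under ABA 7.34 and 7.52. OE differed from WT by -0.01 in water and by 0.35 under ABA (SE 0.14, unadjusted p = 0.0553 and adjusted p = 0.153 in limma). The direction opposite to CAT1 and CAT2 under ABA was not called.

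The CAT3 probes did not give 1 answer. In water, 8 of the 9 ranged from -0.52 to 0.29 and none of these was called, with positive values on 4 of them. The probe A_84_P600468, 1 of 9 and assigned to another transcript of the gene than the rest, was called lower: it read -1.24 and -1.23 in WT water and -2.47 and -2.31 in OE water, a difference of -1.16 (SE 0.22, adjusted p = 0.0151 in limma). Under ABA this probe gave -0.52 (adjusted p = 0.156). Its call is 1 of the 3 member probes called in water, and it does not enter the count of genes, which uses the brightest probe.

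**Figure D3:**
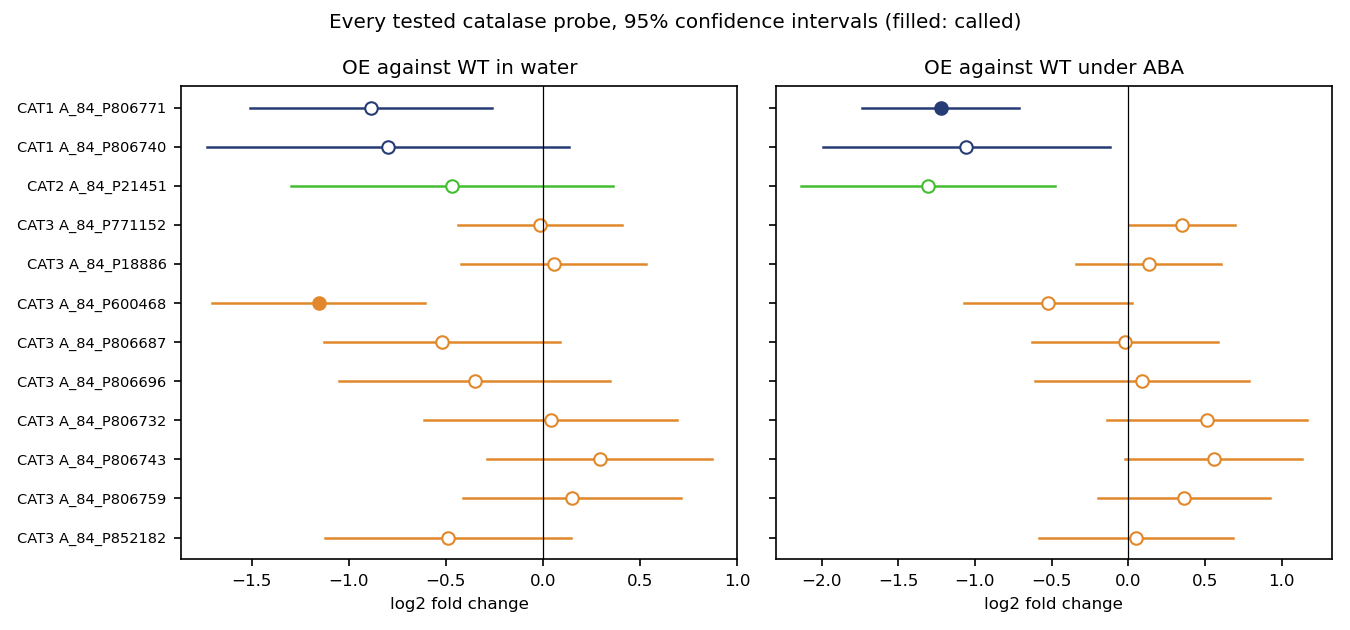
Log2 fold change of OE against WT in water and under ABA for each of the 12 tested catalase probes, with 95% confidence intervals from limma (filled: called). The intervals of the brightest CAT1 and CAT3 probes, which lack an array, are too narrow. Both CAT1 probes and the CAT2 probe lie below 0 in both panels, while the 9 CAT3 probes lie on both sides of it, with A_84_P600468 lowest at -1.16 in water.

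Over both treatments, the OE arrays lay wholly above the WT arrays for 2 of 10 members, FSD2 and FSD3, and wholly below for 4, CSD2, MSD1, CAT1 and CAT2. Each genotype had 4 arrays, but CAT1 and CAT3 lacked the first WT water array. The left-out CAT1 spot read 2.86, below all OE arrays (3.34 to 3.77), so with it the genotypes overlap for CAT1. Of all tested locus tags, 20.5% lay wholly above and 17.6% wholly below, 38.1% together, so that such separation was common on these arrays. For FSD1, CSD1, CSD3 and CAT3 the arrays of the genotypes overlapped.

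ABA itself called no member in either genotype. In WT the 10 differences between ABA and water ranged from -0.40 (CAT3) to 0.80 (FSD3) with a median of -0.14, and in OE from -1.01 (CAT2) to 0.16 (CSD1) with a median of -0.10. Of all locus tags, 0.842% were called in WT and 2.12% in OE, so that a call among 10 genes would have been uncommon. In limma 0 members passed an unadjusted p of 0.05 and 2-fold in WT, and 1, CAT2, did in OE. The 95% interval excluded a 2-fold change for 7 of 10 genes in WT and 6 of 10 in OE. The intervals of CAT1 and CAT3 among these are too narrow and, in WT, rest on 1 usable water array. CAT1, known as ABA-responsive, differed by 0.29 in WT (on 1 usable WT water array, as for CAT3, and 1.10 with the outlier spot kept). In OE, CAT1 differed by -0.05 (SE 0.21). The ABA-induced gene RD29B, by contrast, rose at least 11.9-fold in WT and at least 3.74-fold in OE, lower bounds because it was not well above background in water.

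**Figure D4:**
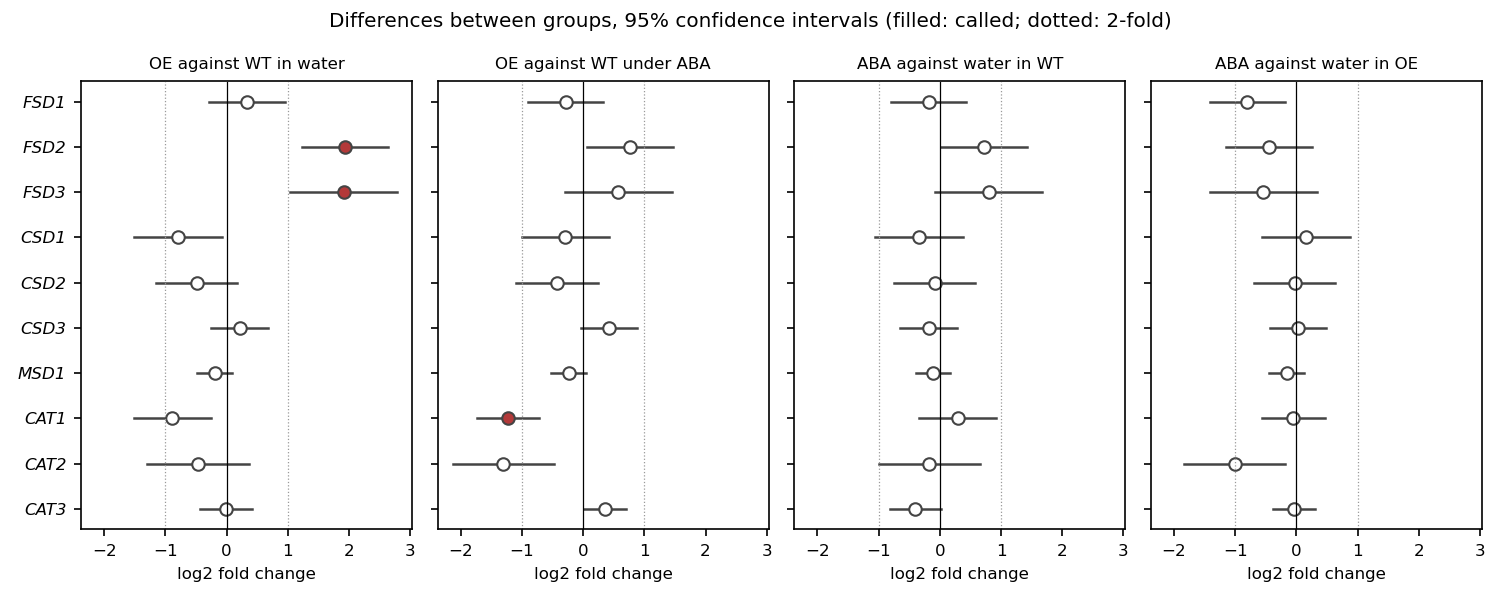
Log2 fold change with 95% confidence interval for each of the 10 genes in the 4 comparisons between 2 groups (filled: called in limma; dotted lines: 2-fold). The intervals of CAT1 and CAT3, whose probes lack an array, are too narrow. The filled points are FSD2 (1.93) and FSD3 (1.91) in water and CAT1 (-1.22) under ABA, and no point is filled for ABA against water.

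The genes around these enzymes were read from lists of 81 further genes, of which 67 were tested. Among these, 3 were called higher and 7 lower in OE in water, 2 higher and 3 lower in OE under ABA, and 0 in the ABA comparison of either genotype. These calls are 14.9% of the tested list genes in water and 7.46% under ABA, below the 19.2% and 9.93% of all locus tags. The median log2 change over the lists was -0.06 in water and -0.09 under ABA.

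The first list held proteins that deliver, switch on or regulate the members. CPN20, a chloroplast co-chaperonin known to activate FSD1, was called higher in OE in water (1.08, SE 0.31, 2.12-fold, adjusted p = 0.0451 in limma), and differed by 0.18 under ABA (adjusted p = 0.707). It was the single gene called of 7 tested, and no gene of this list was called under ABA. CCS, the copper chaperone of the copper/zinc enzymes, differed by -0.17 in water and by -0.17 under ABA. SPL7, the regulator of the copper deficiency response, differed by 0.12 and 0.10. NCA1, which catalases need for full activity, differed by -0.33 and -0.40, with 95% intervals of -0.68 to 0.03 and -0.76 to -0.05. LSD1, a zinc finger protein that binds catalases, differed by -0.52 in water (adjusted p = 0.0455, under the minimum fold) and by -0.52 under ABA (adjusted p = 0.0699). MTM1, a mitochondrial carrier linked to manganese loading of MSD1, differed by -0.10 in water and by -0.70 under ABA (adjusted p = 0.0567).

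Genes of the copper response were read in the same way. Of 8 tested genes of copper uptake and delivery (median log2 change -0.40 in water and -0.33 under ABA), 0 were called in water and 1 under ABA, the copper transporter gene COPT2 (-1.15, SE 0.25, adjusted p = 0.0332 in limma). Of 8 tested targets of copper microRNAs other than CSD1, CSD2 and CCS (median 0.82 in water and 0.41 under ABA), 0 were called in water and 1 under ABA, the laccase gene LAC4, which rose by 1.09 (SE 0.20, adjusted p = 0.0217). The microRNAs were not measured here.

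Other genes that remove peroxide showed both directions. In the ascorbate-glutathione cycle 3 of 16 tested genes were lower in OE in water and 0 higher. Glutathione reductase GR1 was lower in OE at 1.53 against 3.12 in water (-1.59, SE 0.19, adjusted p = 0.00486 in limma) and at 1.54 against 3.1 under ABA (-1.56, SE 0.19, adjusted p = 0.00812). It was the single gene of this list called under ABA. The monodehydroascorbate reductase genes MDAR2 (-1.63, adjusted p = 0.0208) and MDAR3 (-5.60, SE 1.24, adjusted p = 0.0215) were called in water, where the WT arrays of MDAR3 had an SD of 1.44.

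Of 15 tested genes of glutathione peroxidase-like enzymes and peroxiredoxins, the chloroplast peroxiredoxin gene PRXQ was higher in water (1.11, SE 0.30, adjusted p = 0.0367 in limma) and GPX7 lower (-1.41, SE 0.34, adjusted p = 0.0261). Under ABA, GPX6 was higher (1.27, SE 0.21, adjusted p = 0.0163) and GPX7 lower again (-2.16, SE 0.34, adjusted p = 0.0138).

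Genes of enzymes that make superoxide or peroxide were also read. Of 9 tested peroxisomal oxidase genes, HAOX2 was higher in OE in water (1.29, SE 0.18, adjusted p = 0.00685 in limma), and GOX3 (-1.95, adjusted p = 0.0172) and the acyl-CoA oxidase gene ACX1 (-1.21, adjusted p = 0.0143) were lower. None of them was called under ABA. The main photorespiratory glycolate oxidase genes, GOX1 and GOX2, whose peroxide CAT2 removes, differed by -0.37 and 0.03 in water and by -0.71 and 0.02 under ABA, and were not called. Of the NADPH oxidase genes, which make superoxide at the plasma membrane, 4 of 10 were tested and RBOHD was called lower in OE in water (-2.40, SE 0.39, 5.27-fold lower, adjusted p = 0.00954).

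**Figure D5:**
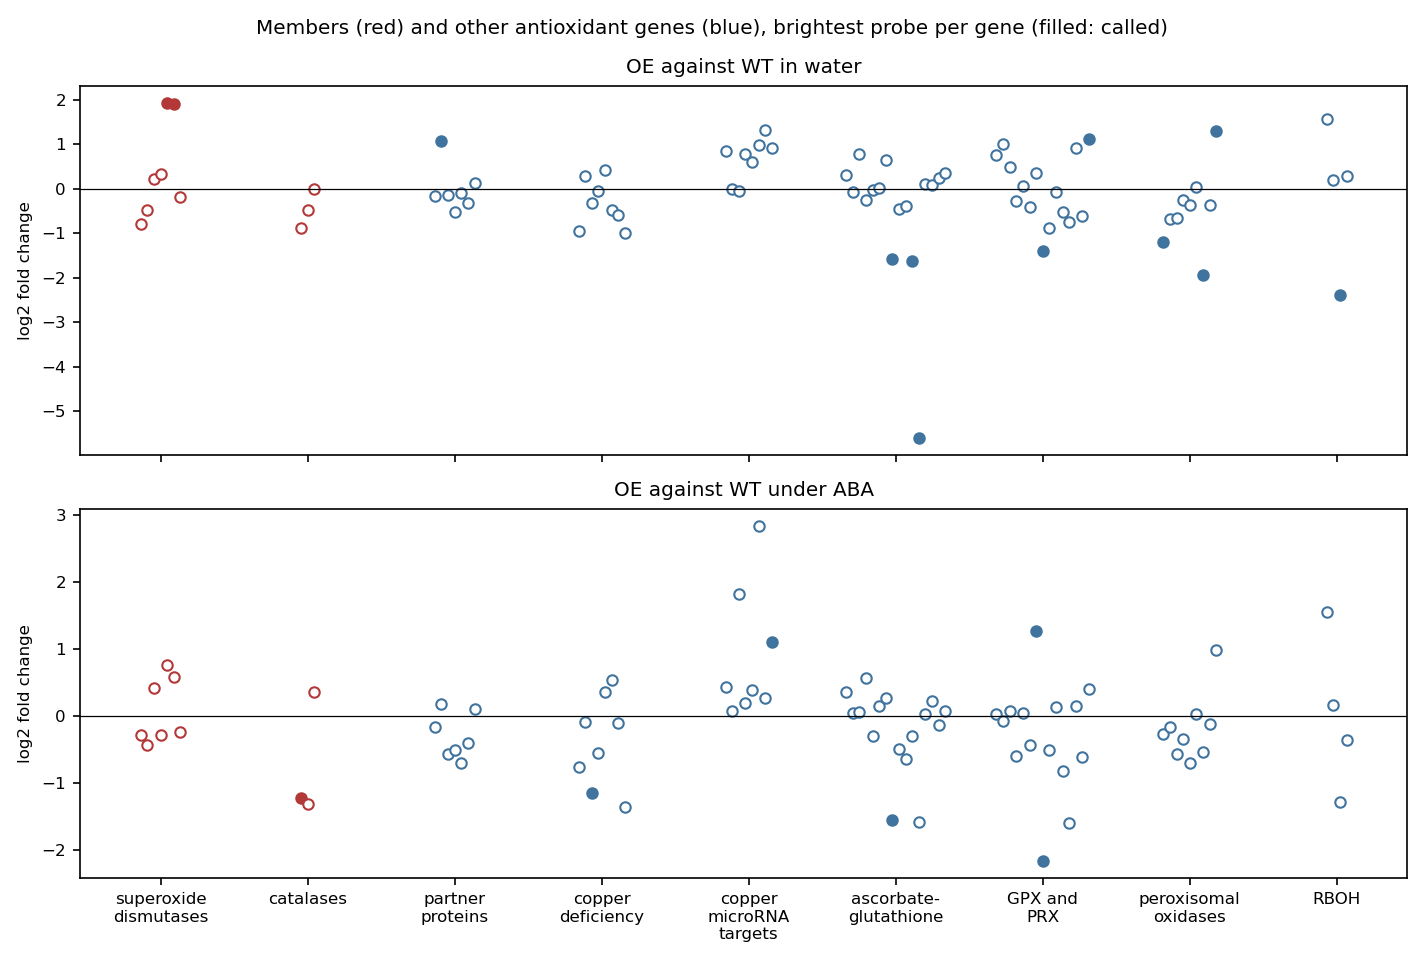
Log2 fold change of OE against WT in water and under ABA for the 10 members (red) and the 67 tested genes of the other lists (blue), 1 point per gene by its brightest probe (filled: called in limma). FSD2 and FSD3 are the filled red points in water and CAT1 the filled one under ABA, and the lowest point, in the ascorbate-glutathione list in water, is MDAR3 at -5.60.

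Some other gene groups moved with genotype on the same arrays. Of 9 circadian clock genes, 5 were called higher and 2 lower in OE in water, and 5 higher and 3 lower under ABA: LHY differed by -4.33 and -6.23 and ELF4 by 4.44 and 6.69 in the 2 comparisons. Catalase genes are known to cycle with the day, and the hour of harvest is not given in the sources used here. Both tested genes of senescing leaves were called lower in OE in water, SAG13 by -6.33 and SEN1 by -3.00, and SAG13 also under ABA (-4.74); the summed linear level of the 3 listed genes, relative to the 75th percentile of the array, was 22.7 to 24.9 in WT water, 1.96 to 2.26 in OE water, 16.1 to 23.7 in WT under ABA and 2.86 to 6.02 in OE under ABA. Their part in the differences of the members was not tested.

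Markers of plant parts were read as a check of the label of whole plants. Shoot genes were at a high level on all arrays, with a summed level of 631 to 860 over 6 genes, and 0 of 6 were called in any comparison. The summed level of 7 root genes was 3.80 to 12.8 in WT water, 7.17 to 12.5 in OE water, 2.98 to 8.13 in WT under ABA and 11.5 to 20.2 in OE under ABA. Under ABA, where CAT1 was called, the sums of the genotypes thus did not overlap. The root genes did not move as 1 group there. Over the 6 tested, the median log2 change of OE against WT under ABA was -0.53, from -1.44 to 1.91, with 0 called. Of these genes EXPA7 and COBL9 were not above background in WT or in OE under ABA, and COBL9 was called higher in OE in water (at least 3.68-fold). The 4 flower genes were at 0.0224 to 0.287 in WT and 0.382 to 1.68 in OE in sum, and 0 of 4 were called. In WT, AP1, AP3 and PI were well above background on 1 of 2 water arrays, and under ABA AP1 and AG on 1 of 2 and AP3 on 0 of 2, where AP3 was at least 8.36-fold higher in OE. The part of roots and flowers in the results was not tested.

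Superoxide dismutase activity of plants with this transgene belongs to earlier work of the same group under salt and drought, conditions that these 8 arrays do not hold. The authors report it as enhanced there. For ABA they cite a lower level of reactive oxygen species than in WT, which is not an enzyme activity. Enzyme activity was not measured on the arrays, and a transcript level is not an activity, so the values above were not compared with it.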

How the data were processed

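The authors hybridized each sample to 1 Agilent array and deposited the output of Feature Extraction 10.7.3.1, whose processed intensity is background-subtracted, with flags for outlier, saturated and well above background spots. They also deposited a table of log2 values, which followed the log2 processed intensity of the same arrays with r of 0.9995 to 0.9999. Its columns share a median of 7.585 and differ by at most 0.0018 when sorted, as after quantile normalization, and it was used as an alternative. The values are neither centred nor ratios. The authors' methods name MAS 5.0 and Welch's t-test.

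The values used here are log2 processed signals, from which the 75th percentile of the array was subtracted. Outlier spots were left out and no gene spot was saturated. Of 43603 gene probes, 31265 were well above background on every array of at least 1 group and were tested, 1156 of them lacking a value on at least 1 array. They were fitted in R 4.3.3 with limma 3.58.1 (lmFit, eBayes), as 4 group means over 8 arrays (degrees of freedom: 4 residual, 1.99 prior). Calls needed a Benjamini-Hochberg adjusted p under 0.05 over all probes and a fold of at least 2. Intervals are at 95%, from the SE of the same fit and the degrees of freedom of a probe with a value on every array. For the brightest probes of CAT1 and CAT3, which lack 1 array, they are therefore too narrow. Those intervals enter figures and counts of intervals only. The number of arrays limits the precision. Accessions of 34394 probes (78.9%) matched 25427 locus tags in RefSeq's table of assembly TAIR10.1. Related genes, above all the catalases, may share probe signal, which was not checked, since probe sequences were not used here. For a group at background level the fold is a lower bound (at least N-fold): per array, the dim group was set to the dimmest signal that still counted as well above background, or to its own signal where that was brighter.

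Named were all members, up to 3 called genes per list, direction and comparison, the genes tied directly to the members (MSD2, CCS, SPL7, NCA1, LSD1, MTM1, CPN20, GOX1, GOX2), and the 3 locus tags most like each of the 3 members with the most variable group means, of which 1 is not reported here. The clock, ABA, senescence and other marker genes are given as values beside the results. The members and lists were chosen with earlier results of these data known. The fit was tested on simulated data in which 200 of 30109 probes were changed, with a single run for each comparison and size of change. The comparisons between pairs of groups were simulated alike, so differences in recovery among them are spread between runs. A far larger share of probes, 19.0%, was called between the genotypes in water, so the recovery need not hold there. A log2 change of 1.5 was recovered in 0% to 36.5% of cases for the comparisons between pairs of groups, and in 0% for the interaction. A change of 3 was recovered in 67% to 88.5%. The alternatives changed the normalization, background correction, filter, outlier spots, arrays, blocks, variance model, thresholds, test and probe rule. Promoters were not analysed here.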

Additional observations from a re-analysis of the deposited data

How the results depend on the processing

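Over 42 combinations of a member and a comparison, the 668 alternatives run gave 648 values on the same side of the threshold, 13 that lost a call, 7 that gained one and 0 called values with the opposite sign. In water, 2 members were called, and 1 (FSD2) with normexp background correction, 1 to 2 on leaving out each array in turn, and 0 by the methods' t-test, before or after adjustment. The lower count arose without the second WT water array. FSD2 was called in 15 of 16 alternatives and FSD3 in 13 of 16. Under ABA, where 1 was called, 2 (CAT1 and CAT2) were called with quantile normalization, cyclic loess, probes well above background on all 8 arrays, slide as a random block (correlation -0.16), a variance trend, or an unadjusted p. There 0 were called with normexp, with outlier spots kept, with only the groups compared, by the methods' t-test before or after adjustment, or when every probe had to be called, and 0 to 2 on leaving out each array. CAT1 was called in 7 of 16 alternatives and CAT2 in 7 of 16, including the authors' table, where CAT2 was called and CAT1 was not (adjusted p = 0.127). With an unadjusted p, 1 member (CAT2) passed for ABA in OE and 2 (FSD2, FSD3) for the interaction. Normexp shifted the median of all probes by 0.33 under ABA, by 0.27 for ABA in OE and by 0.30 for the interaction, and testing dim probes too shifted it by 0.11 in water. With 1 usable WT water array, CAT1 and CAT3 gave no value against it by the methods' t-test or without the second WT water array. The causes were not tested.

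The replicate numbers were not taken as pairs in the main fit. Deviations of same-numbered arrays correlated at -0.18 to 0.11 over 6 pairs of groups, 1 of them over 0.1, which cannot exclude a pairing. With the replicate block, 0 members were called under ABA and 2 in water, and 0 in the other comparisons.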
